A study of Mus musculus with 6 samples.

Results

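The genes described here encode the subunits of the respiratory chain and of ATP synthase, in both genomes of the cell. They were taken by symbol from a table of 56691 mouse genes: the Ndufa, Ndufb, Ndufc, Ndufs and Ndufv series, Sdha to Sdhd, the Uqcr series, the Cox4 to Cox8 series, the Atp5 series, and the mt-Nd, mt-Cytb, mt-Co and mt-Atp genes, without assembly factors of the Ndufaf series and without pseudogenes named as such. This gave 104 genes, 91 in the nucleus and 13 on the mitochondrial genome. By complex they were 48 genes for complex I, 4 for complex II, 9 for complex III, 24 for complex IV and 19 for complex V. Ndufa4 and its relative Ndufa4l2, which are named after complex I, were counted with complex IV, where the Ndufa4 protein is found. The symbols also admit Cox7a2l, which helps complexes join into supercomplexes, and copies such as Ndufb4c, Ndufs6b and Cox6c2.

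RNA came from 4T1 cells, an established line of mouse mammary carcinoma. The cells were given vehicle or 1 µmol/L KIRA6 in fresh medium for 4 h, with 3 libraries in each group. KIRA6 is a kinase inhibitor that binds IRE1α, a sensor of protein folding stress, and lowers its RNase activity. The comparison asks which transcripts of the tumour cells differ after exposure. Both groups are the same line, and no genetic change is named for either.

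Complexes I to IV pass electrons from NADH and succinate to oxygen, complexes I, III and IV pump protons across the inner mitochondrial membrane, and complex V uses the returning protons to make ATP. The mitochondrial genome encodes a small core of complexes I, III, IV and V, and complex II is wholly nuclear. The mitochondrial genes are read as long polycistronic transcripts that are cut into single messages, most of them from 1 strand, with mt-Nd6 on the other. The nuclear subunits are made on cytosolic ribosomes and imported, so every complex but complex II needs both genomes.

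The deposited unit is FPKM, the fragments of a gene scaled by its exonic length and by the library's total. The libraries, here called Vehicle 1 to 3 and KIRA6 1 to 3, held an estimated 16498900 to 21348350 fragments. Epithelial markers summed to 1334 to 1471 FPKM under vehicle and 1449 to 1547 FPKM under KIRA6. Of 6 leukocyte markers 3 were at 0 in all libraries (Adgre1, Cd3e and Ms4a1), and their sum was 1.66 to 2.63 FPKM under vehicle and 3.07 to 3.80 FPKM under KIRA6. Of 5 fibroblast markers 1 was at 0 (Lum), and their sum was 0.45 to 0.75 FPKM under vehicle and 1.85 to 3.74 FPKM under KIRA6. Male germ cell markers summed to at most 0.19 FPKM. The striated muscle list summed to 18.6 to 28.5 FPKM under vehicle and 12.0 to 15.5 FPKM under KIRA6, most of it from Tnnt2, with Actc1, Myh6 and Myh7 at 0. The leukocyte, fibroblast and muscle sums moved with the groups, mostly through Cd68, Pdgfra and Tnnt2 in that order. The leukocyte markers Ptprc and Itgam were at most 0.02 FPKM in any library. The fibroblast markers Dcn, Col1a1 and Col3a1 were at most 0.08 FPKM. The part of these sums in the results below was not tested. A single component held 81.3% of the within-group variance of all tested genes, with Vehicle 3 (0.633) and KIRA6 1 (−0.502) at its ends, and values without both are given beside the results they touch most.

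The sequences come first for the mitochondrial genes, because several of these genes share long stretches with other places in the genome. In the GENCODE M21 transcripts (GRCm38), 681 aligned bases of mt-Co2, a catalytic subunit of complex IV, were identical to Gm28661, a pseudogene on chromosome 1, with 0 differing bases. The 783 aligned bases of mt-Co3 and Gm28437 also had 0 differing bases. By contrast the nearest annotated copy of mt-Nd2, a complex I subunit, was Gm13339 on chromosome 2, with 17 differing bases among 510. The stretches below are 60 bases each, in transcript orientation, with differing bases in capitals. They lie at chrM:7313-7372 (+) for mt-Co2, chr1:24615206-24615265 (−) for Gm28661, chrM:4462-4521 (+) for mt-Nd2 and chr2:22590454-22590513 (−) for Gm13339, all on GRCm38.
mt-Co2: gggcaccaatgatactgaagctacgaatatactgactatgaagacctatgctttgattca
Gm28661: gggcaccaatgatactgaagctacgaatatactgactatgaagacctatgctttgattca
mt-Nd2: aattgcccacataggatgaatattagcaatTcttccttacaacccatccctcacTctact
Gm13339: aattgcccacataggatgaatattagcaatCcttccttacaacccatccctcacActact

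Each mitochondrial transcript was cut into all its 100-base windows, and the share of windows found in a transcript of another gene was counted. The share was 99.9% for mt-Co3, 99.5% for mt-Co2 and for mt-Atp6, 98.5% for mt-Nd4l and 97.6% for mt-Nd3, and each of these matched a pseudogene in 1 stretch of chromosome 1. It was 60.8% for mt-Nd4, 30.8% for mt-Co1, 3.2% for mt-Nd2 and 0.0% for mt-Nd1, mt-Nd5, mt-Nd6 and mt-Cytb. The measure was also 0.0% for mt-Atp8, which lies between mt-Co2 and mt-Atp6 on the mitochondrial genome, and no annotated transcript covers the matching interval between their copies.

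The deposited levels of the mitochondrial genes differed along the same line. In the vehicle libraries mt-Co1, the core catalytic subunit of complex IV, stood at 6260.04, 5455.66 and 4307.01 FPKM. mt-Co2, the next protein gene on the same strand, stood at 26.1, 23.66 and 24.31 FPKM. The ratio of mt-Co1 to mt-Co2 was 153.2 to 239.8 over the 6 libraries. mt-Co3, mt-Atp6, mt-Nd3, mt-Nd4l and mt-Atp8 were lower than mt-Co2 in mean, from 26.3 FPKM for mt-Co3 down to 0.953 FPKM for mt-Atp8 over all libraries. The 6 genes with under 50% of their windows shared, apart from mt-Atp8, had means from 553.7 FPKM (mt-Nd6) to 6544 FPKM (mt-Co1). The chromosome 1 copies carried FPKM of their own: Gm28661 had 16.7, 15.31 and 13.43 FPKM under vehicle and 19.6, 31.12 and 22.49 FPKM under KIRA6. How reads that fit both places were counted is not given in the sources used here, and the part of the shared sequence in these levels was not tested. The values of mt-Co2, mt-Co3, mt-Atp6, mt-Atp8, mt-Nd3 and mt-Nd4l are therefore uncertain, and those of mt-Nd4 and mt-Co1 partly so.

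**Figure D1:**
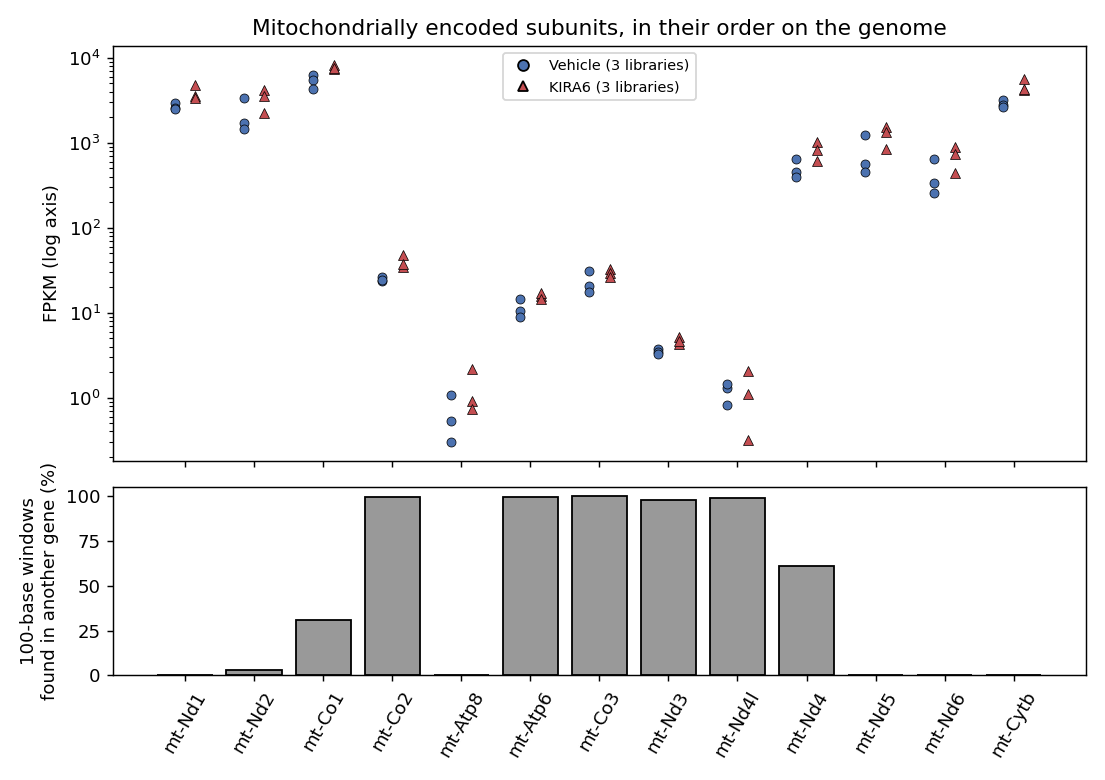
FPKM of the 13 mitochondrially encoded subunits on a log axis, each point 1 library (circles vehicle, triangles KIRA6), above the percentage of each gene's 100-base windows that stand in another annotated gene. Genes with 97.6% to 99.9% of their windows shared, and mt-Atp8, lie at or below 48.31 FPKM, and the others at or above 254.83 FPKM.

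Genes averaging 0.5 FPKM or more were tested, which took in 95 of the 104 subunits, 82 nuclear and 13 mitochondrial. With limma over 11778 genes and Benjamini-Hochberg adjustment, 3 of the 95 rose with KIRA6 and 0 fell, at an adjusted p below 0.05. They were Ndufv3, a small accessory subunit of complex I, mt-Cytb, the cytochrome b of complex III, and mt-Co2. Among all tested genes 23.6% were called, 15.6% higher and 7.98% lower, and the subunits, with 3.16% called, lay below that share. No subunit was called when Vehicle 1, Vehicle 2, KIRA6 2 or KIRA6 3 was left out, and 7 were called higher when Vehicle 3 was. Calls changed over the whole table in these fits. Among the 11778 genes they ran from 1211 (without KIRA6 2) to 3392 (without Vehicle 3), against 2783 with all libraries. At an unadjusted p below 0.05 there were 12 of the 95 subunits (12.6%), beside 37.5% of all tested genes. They were 5 of the 82 nuclear subunits (6.1%), below that share, and 7 of the 13 mitochondrial ones (53.8%), above it. These 7 were 3 of the 6 genes with under 50% of their windows shared, and 4 of the other 7, which include mt-Atp8. Mitochondrial genes are cut from the same long transcripts, so they do not count as independent genes. The groups did not overlap for 16 subunits higher with KIRA6 and 1 lower, where the table as a whole gave 27.7% higher and 14.1% lower. The 16 were 10 of the 82 nuclear subunits and 6 of the 13 mitochondrial ones, and the 1 lower was nuclear.

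The fold change of most nuclear subunits was small. It is the difference of log2(FPKM + 0.5), which understates changes of low genes. The median over the 82 nuclear subunits was 0.106, beside 0.157 for all tested genes, with a range from −0.279 (Sdhb) to 0.955 (Ndufv3), and 63 of 82 estimates were above 0. For 78 of the 82 the 95% interval of the fit lay within a 2-fold change either way, and those outside it were Ndufv3, Cox7a2l and the low copies Ndufs6b and Cox6c2. The median over the 13 mitochondrial subunits was 0.614, with 12 of 13 estimates above 0. It was 0.692 over 6 genes with under 50% of their windows shared, mt-Co1 among them with 30.8%, and 0.5 over the other 7, which include mt-Atp8. The difference between the genomes was not tested, because the genes of a genome share their libraries.

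The sign of the nuclear median depended on the scaling, while the mitochondrial median stayed above 0 in each alternative run. Median-ratio scaling gave −0.079 for the nuclear and 0.487 for the mitochondrial subunits, beside −0.008 for all tested genes. The correction for length and GC content gave −0.031 and 0.301, beside −0.02. Quantile normalization gave 0.189 and 0.451, beside 0.003, so the nuclear median lay above that of the table there and below it in the fit reported first. Among all called genes the higher share was 66.2% there, 47.4% with median-ratio scaling, 48.9% with quantile normalization and 47.5% with the correction. With Vehicle 3 and KIRA6 1 both left out, the medians were −0.154 and 0.689, beside 0.176, and 16 subunits were called higher and 16 lower. That fit called 56.1% of all tested genes, 35.9% higher and 20.2% lower, so both counts of subunits lay below the share of the table. Median-ratio scaling called 23.2% of all tested genes, 11% higher and 12.2% lower. Leaving out the libraries that lay farthest from their groups lowers the spread by construction. The direction is set as well. The estimate must fall where Vehicle 3 was the lowest vehicle library and KIRA6 1 the highest KIRA6 library, as in most nuclear subunits. It must rise where the order is reversed, as in mt-Nd2, mt-Nd4, mt-Nd5 and mt-Nd6. The calls of this fit, here and below, are therefore a description. In the fit without Vehicle 3 and KIRA6 1, all 16 that were lower were among the 82 nuclear subunits, near the 20.2% of the table. Those higher were 7 of the 13 mitochondrial subunits, above the 35.9% of the table, and 9 of the 82 nuclear ones, below it.

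**Figure D2:**
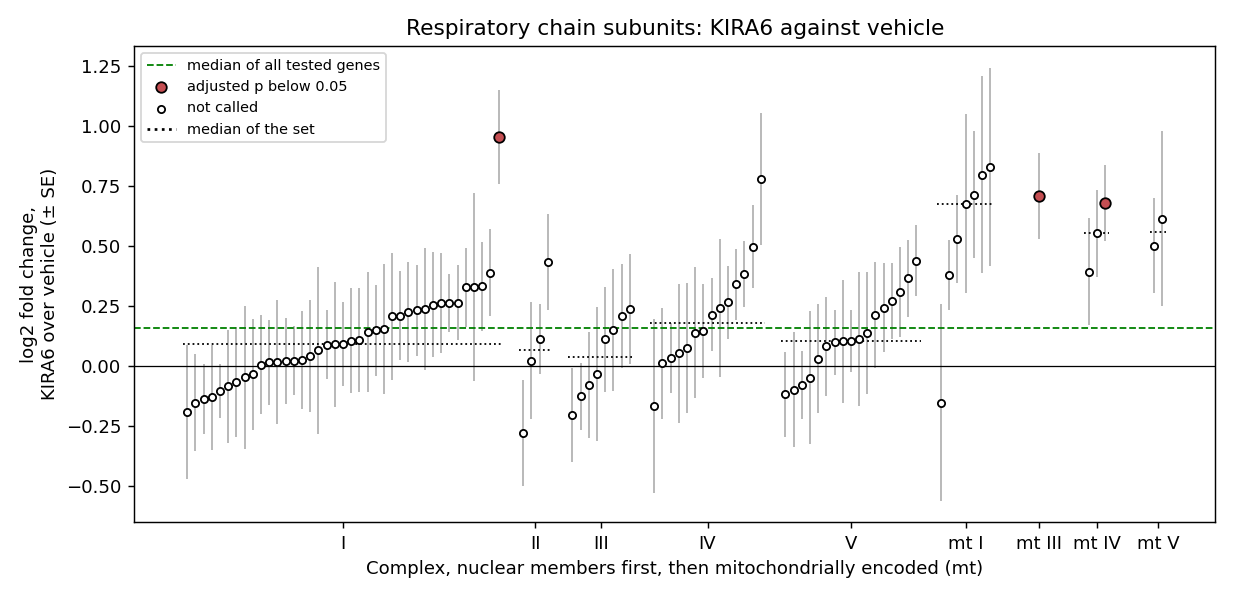
Log2 fold change of KIRA6 over vehicle with its standard error for the 95 tested subunits, sorted within each complex, nuclear sets first. Filled points passed an adjusted p of 0.05, dotted lines are set medians and the dashed line is the median of all tested genes, 0.157. The mitochondrial sets lie above that line at their medians, while nuclear sets straddle it.

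The libraries of a group differed in a way that nuclear subunits shared. Vehicle 3 had the lowest vehicle value for 67 of 82 nuclear subunits (81.7%), against 49.5% of all tested genes, and KIRA6 1 had the highest KIRA6 value for 58 of the 82 (70.7%), against 39.6%. The median deviation of a nuclear subunit from its own mean was 0.143, 0.058 and −0.328 in the vehicle libraries and 0.243, 0.135 and −0.203 in the KIRA6 libraries. The groups overlapped, with KIRA6 3 below Vehicle 1 and 2. For the mitochondrial subunits the medians were −0.191, −0.388 and −0.361 in vehicle and 0.148, 0.616 and 0.249 with KIRA6, and every KIRA6 library lay above every vehicle library. Over all tested genes the medians did not overlap either, at smaller values. They were −0.076, −0.071 and −0.106 in vehicle and 0.041, 0.081 and 0.123 with KIRA6.

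**Figure D3:**
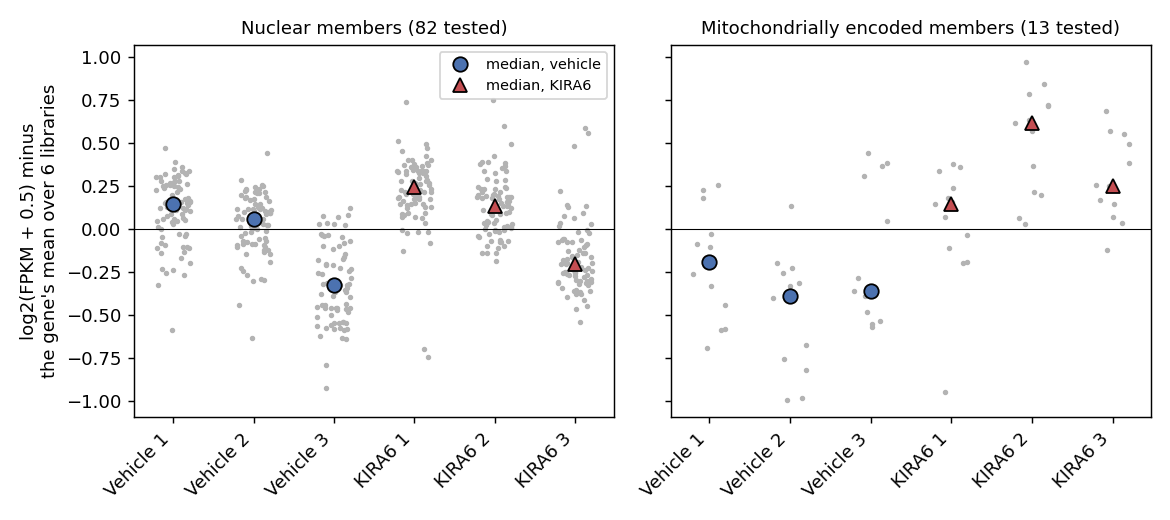
Deviation of each tested subunit from its own mean, on the log2(FPKM + 0.5) scale, by library. Small points are genes and large symbols are medians. The nuclear medians of vehicle (−0.328 to 0.143) and KIRA6 (−0.203 to 0.243) overlap, and the mitochondrial medians do not. The medians of all tested genes, which are not drawn, do not overlap either (−0.106 to −0.071 and 0.041 to 0.123).

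Summed over its members, the mitochondrial set took 1.98%, 1.71% and 1.9% of fragments in the vehicle libraries and 2.60%, 3.16% and 2.76% with KIRA6. Its summed level was 14780 ± 1184 FPKM under vehicle and 22560 ± 2761 FPKM under KIRA6 (SD, n = 3 each), a ratio of 1.53. The nuclear set took 1.59%, 1.55% and 1.25% of fragments in vehicle and 1.72%, 1.55% and 1.29% with KIRA6. Its summed level was 7481 ± 1029 and 8006 ± 1224 FPKM, a ratio of 1.07. The groups did not overlap for the mitochondrial sum and overlapped for the nuclear sum. In bulk RNA, more transcript per cell and more cells with much of it cannot be told apart. By complex the nuclear ratio was 1.06 for complex I, 1.00 for complex II, 1.03 for complex III, 1.19 for complex IV and 1.02 for complex V.

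With none of its windows shared, mt-Cytb (ENSMUSG00000064370, mitochondrial genome, 14145 to 15288 on the strand of most genes) had 3206.55, 2796.52 and 2618.99 FPKM under vehicle and 4148.98, 5671.94 and 4349.0 FPKM under KIRA6. All 3 KIRA6 libraries were above all vehicle libraries. The log2 fold change was 0.71, with a standard error of 0.18 and a limma adjusted p of 0.03116. The call ended in 9 of 22 alternatives, among them median-ratio scaling (limma adjusted p of 0.0877) and each fit that left out a single library other than KIRA6 1. Over the alternatives the fold change ran from 0.43 to 0.881 and the adjusted p from 0.0003851 to 0.1213, and with Vehicle 3 and KIRA6 1 left out they were 0.73 and 0.009191.

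mt-Co1 had 8290.88, 7402.38 and 7549.61 FPKM under KIRA6, above all 3 vehicle values given before. Its log2 fold change of 0.55 ± 0.18 (SE) missed the threshold (limma adjusted p of 0.06791), and was 0.36 without Vehicle 3 and KIRA6 1 (limma adjusted p of 0.08743). mt-Nd1, the first complex I gene on the mitochondrial genome, had 2982.69, 2552.48 and 2498.34 FPKM under vehicle and 3578.43, 4753.46 and 3368.18 FPKM under KIRA6. It did not overlap between groups either, and its log2 fold change was 0.53, with a standard error of 0.18 and a limma adjusted p of 0.07995. Without the same pair of libraries it was called, at 0.54 (limma adjusted p of 0.04635).

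In mt-Nd2, mt-Nd4, mt-Nd5 and mt-Nd6 the libraries were ordered differently, with Vehicle 3 the highest of its group and above KIRA6 1. mt-Nd2 had 1706.57, 1451.65 and 3338.54 FPKM under vehicle and 2240.19, 4196.1 and 3594.17 FPKM under KIRA6. mt-Nd5 had 557.47, 451.4 and 1223.63 FPKM under vehicle and 835.65, 1551.62 and 1334.4 FPKM under KIRA6. In both genes Vehicle 3 was higher than Vehicle 1 and 2 and also higher than KIRA6 1, so the groups overlapped. mt-Nd6, read from the opposite strand, had 335.72, 254.83 and 650.29 FPKM under vehicle and 438.82, 902.87 and 739.63 FPKM under KIRA6. It kept nearly the same ratio to mt-Nd5 in every library, from 0.525 to 0.602. The intervals of mt-Nd5 (11742 to 13565) and mt-Nd6 (13552 to 14070) overlap, and how strand was handled in counting is not stated. Whether reads of the other strand entered the mt-Nd6 values was not tested, so these values are uncertain too. The ratio of mt-Nd2 to mt-Nd1 was 0.572 and 0.569 in Vehicle 1 and 2 and 1.336 in Vehicle 3, and 0.626 in KIRA6 1 against 0.883 and 1.07 in the others. The log2 fold changes were 0.68 ± 0.37 for mt-Nd2, 0.83 ± 0.41 for mt-Nd5 and 0.80 ± 0.41 for mt-Nd6 (SE), with adjusted p of 0.2392, 0.1968 and 0.2066. With Vehicle 3 and KIRA6 1 left out they were 1.30, 1.52 and 1.48, and all 3 were called.

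mt-Nd4, with 60.8% of its windows shared, had 459.62, 391.21 and 643.46 FPKM under vehicle and 609.15, 1030.27 and 814.72 FPKM under KIRA6. Its log2 fold change was 0.71, with a standard error of 0.26 and a limma adjusted p of 0.09643, and the groups overlapped through Vehicle 3. Without Vehicle 3 and KIRA6 1 it was called, at 1.11 (limma adjusted p of 0.0006786).

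Of the genes whose level is uncertain, mt-Co2 was called. Its KIRA6 values were 34.79, 48.31 and 37.57 FPKM, above all its vehicle values, with a log2 fold change of 0.68, with a standard error of 0.16 and a limma adjusted p of 0.02436. The call ended with median-ratio scaling (limma adjusted p of 0.0677), with the length and GC correction (0.111), and when Vehicle 1, Vehicle 2, KIRA6 2 or KIRA6 3 was left out, over a range of 0.0002078 to 0.1113. mt-Atp6 and mt-Co3, a proton-channel subunit of complex V and a core subunit of complex IV, had log2 fold changes of 0.50 ± 0.20 and 0.39 ± 0.22 (SE) and were not called. mt-Nd3 had 3.79, 3.48 and 3.25 FPKM under vehicle and 5.25, 4.26 and 4.63 FPKM under KIRA6, without overlap and without a call (limma adjusted p of 0.1069). mt-Nd4l rested on 4 to 8 fragments in the vehicle and 2 to 12 fragments in the KIRA6 libraries. mt-Atp8 rested on 1 to 4 and 3 to 8 fragments. Neither was called, although array weights called mt-Atp8 higher (1.25, limma adjusted p of 0.01941).

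Complex I was led by Ndufv3 (ENSMUSG00000024038, chromosome 17, 31739089 to 31750305 on GRCm39, plus strand), the only nuclear subunit called. It had 6.1, 5.87 and 8.05 FPKM under vehicle and 10.9, 16.13 and 13.3 FPKM under KIRA6, and the groups did not overlap. Its mean rose from 6.67 ± 1.20 to 13.4 ± 2.62 FPKM (SD, n = 3 each), and the log2 fold change was 0.95, with a standard error of 0.20 and a limma adjusted p of 0.01613. It was no longer called when Vehicle 1, Vehicle 2, KIRA6 2 or KIRA6 3 was left out, and was called in the rest of 22 alternatives, with limma adjusted p from 4.15e-05 to 0.0722. Without Vehicle 3 and KIRA6 1 it was at 1.22 (limma adjusted p of 0.0002379). No 100-base window of it stood in another gene. The gene can be spliced to include or skip a long exon, and gene-level FPKM does not separate these forms.

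The remaining 38 tested nuclear subunits of complex I were not called, and the median of all 39 was 0.091. Without Vehicle 3 and KIRA6 1, 3 of the 39 were called higher, Ndufv3 among them, and 7 lower. All tested genes gave 35.9% higher and 20.2% lower in that fit. Ndufb9, the most abundant by mean, had 457.88, 438.57 and 298.12 FPKM under vehicle and 541.29, 446.3 and 331.52 FPKM under KIRA6. Vehicle 3 and KIRA6 3 were both low, and the groups overlapped. Ndufv1, which carries the flavin that accepts electrons from NADH, had 45.59, 45.86 and 43.53 FPKM under vehicle and 55.95, 56.48 and 49.89 FPKM under KIRA6. It did not overlap between groups, but its log2 fold change of 0.26 ± 0.12 (SE) was not called (limma adjusted p of 0.1689). Ndufs7, which holds the last iron-sulfur cluster before ubiquinone, was the 1 subunit whose KIRA6 values (23.45, 23.49 and 21.82 FPKM) all lay below its vehicle values (24.56, 24.52 and 24.93 FPKM). Its log2 fold change was −0.10, with a standard error of 0.11 and a limma adjusted p of 0.5561. Ndufv1 and Ndufs7 are named here after their values were seen. At the low end Ndufs6b had a mean of 1.29 FPKM, and Ndufa11b and Ndufb11b were not tested, the latter at 0 in all libraries. Among nuclear subunits the share of windows that stand in another gene was highest for Ndufb4c, at 100%, in Ndufb4, so that copy's level is uncertain.

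The 4 subunits of complex II, which is also the succinate dehydrogenase of the citric acid cycle, were not called, none had an unadjusted p below 0.05, and their estimates had both signs. Sdhc, 1 of the membrane anchors (ENSMUSG00000058076, chromosome 1), had 51.55, 50.02 and 35.83 FPKM under vehicle and 73.22, 59.88 and 52.37 FPKM under KIRA6. Its groups did not overlap, and its log2 fold change was 0.43, with a standard error of 0.20 and a limma adjusted p of 0.1681. Sdhb, the iron-sulfur subunit (ENSMUSG00000009863, chromosome 4), had 131.21, 121.71 and 98.25 FPKM under vehicle and 120.06, 100.79 and 72.35 FPKM under KIRA6. Its groups overlapped and its log2 fold change was −0.28, with a standard error of 0.22 and a limma adjusted p of 0.4101. The flavoprotein Sdha and the anchor Sdhd had log2 fold changes of 0.11 ± 0.15 and 0.02 ± 0.25 (SE). In all 4 genes Vehicle 3 was the lowest vehicle library and KIRA6 1 the highest KIRA6 library. Without these libraries Sdhb (−0.56, adjusted p of 0.0172) and Sdhd (−0.37, adjusted p of 0.0194) were called lower, and Sdhc was at 0.14.

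None of the 8 nuclear subunits of complex III was called, none had an unadjusted p below 0.05, and 4 estimates were above and 4 below 0. The Rieske iron-sulfur protein Uqcrfs1 had 143.19, 143.55 and 98.34 FPKM under vehicle and 125.2, 106.77 and 98.62 FPKM under KIRA6. Uqcrh, the most abundant of them and an acidic hinge protein at the cytochrome c side, had 182.51, 169.44 and 137.07 FPKM under vehicle and 236.37, 207.65 and 141.5 FPKM under KIRA6. Both genes overlapped between groups, and Uqcrfs1 is named after its values were seen. Without Vehicle 3 and KIRA6 1 it was called lower, at −0.48 (limma adjusted p of 0.005629). The lowest of the 8 was Uqcrq, with a mean of 71.8 FPKM. In all 8 genes Vehicle 3 was the lowest vehicle library and KIRA6 1 the highest KIRA6 library.

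Complex IV had the highest nuclear median, 0.18 over 14 tested genes, with 13 of 14 estimates above 0 and 0 limma calls, and 3 of the 14 (21.4%) had an unadjusted p below 0.05. Among all tested genes 62.2% of estimates were above 0 and 37.5% had such a p. Cox7a2l had the largest estimate (ENSMUSG00000024248, chromosome 17), with 152.57, 147.14 and 85.49 FPKM under vehicle and 272.08, 199.42 and 179.17 FPKM under KIRA6. The groups did not overlap, and the log2 fold change of 0.78 ± 0.28 (SE) missed the threshold (limma adjusted p of 0.08566). It was called in 7 of 22 alternatives, among them the length and GC correction (limma adjusted p of 0.0303). Without Vehicle 3 and KIRA6 1 it was also called, at a smaller 0.33 (limma adjusted p of 0.03378). Cox6a1 (ENSMUSG00000041697, chromosome 5) had 142.02, 140.39 and 155.91 FPKM under vehicle and 186.57, 210.67 and 175.55 FPKM under KIRA6, again without overlap. Its log2 fold change was 0.38, with a standard error of 0.14 and a limma adjusted p of 0.08783. Cox4i1, the most abundant nuclear subunit of this complex, had 346.92, 339.54 and 352.55 FPKM under vehicle and 433.21, 441.58 and 338.74 FPKM under KIRA6. KIRA6 3 lay below every vehicle library, so the groups overlapped. Without Vehicle 3 and KIRA6 1, 4 nuclear subunits of complex IV were called higher and 1 lower, beside 35.9% and 20.2% of all tested genes. The 1 lower was Cox6c, at −0.40 (limma adjusted p of 0.03484). Estimates for Cox6b1, Cox6c2, Cox7a2, Cox7b, Cox7c and Ndufa4 were also below 0 in that fit, and the rest were above 0. Cox6c and Cox7c are named after their values were seen.

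Several complex IV subunits exist as isoforms with tissue preferences, and the table held mainly the widely expressed form of each. Cox4i2, the lung and hypoxia form, had a mean of 0.0767 FPKM. The heart and muscle form Cox7a1 had a mean of 0.468 FPKM, while Cox7a2 had 160.2 FPKM under vehicle and 162.6 FPKM under KIRA6. Cox8b, Cox8c, Cox6b2 and Cox7b2 were listed at 0 in all 6 libraries, while Cox8a, Cox6b1 and Cox7b had vehicle means of 175.1, 249.3 and 55.4 FPKM. Cox6a2, the heart and muscle form of Cox6a1, was present at 3.23, 2.94 and 4.27 FPKM under vehicle and 4.68, 5.57 and 4.96 FPKM under KIRA6. These groups did not overlap, and the log2 fold change was 0.50, with a standard error of 0.17 and a limma adjusted p of 0.08271. Cox6c2, the lowest tested member of the complex, had a mean of 1.09 FPKM, and 34.8% of its windows stand in Cox6c. Of the related pair Ndufa4 and Ndufa4l2, the first had means of 93.5 and 109.7 FPKM and the second at most 0.0167 FPKM.

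Complex V had 17 tested nuclear subunits, a median of 0.103 and 0 limma calls, with 1 at an unadjusted p below 0.05. Without Vehicle 3 and KIRA6 1, 2 of the 17 were called higher and 3 lower, beside 35.9% and 20.2% of all tested genes. Atp5b, the catalytic β subunit and the most abundant nuclear gene of all complexes, had 692.53, 712.44 and 645 FPKM under vehicle and 703.03, 663.57 and 578.49 FPKM under KIRA6, and the groups overlapped. Subunit c of the rotor ring is encoded by Atp5g1, Atp5g2 and Atp5g3, which differ in their import sequences and yield the same mature protein. Atp5g2 (ENSMUSG00000062683, chromosome 15) had 70.74, 67.6 and 77.2 FPKM under vehicle and 94.27, 112.45 and 87.26 FPKM under KIRA6, without overlap. Its log2 fold change was 0.44, with a standard error of 0.15 and a limma adjusted p of 0.07433, but 34.7% of its 100-base windows stand in other genes, so its level is uncertain. Atp5g1 and Atp5g3 had log2 fold changes of 0.10 ± 0.13 and 0.10 ± 0.14 (SE), with overlapping groups. Of the windows of Atp5o, a stalk subunit, 27.9% were shared.

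**Figure D4:**
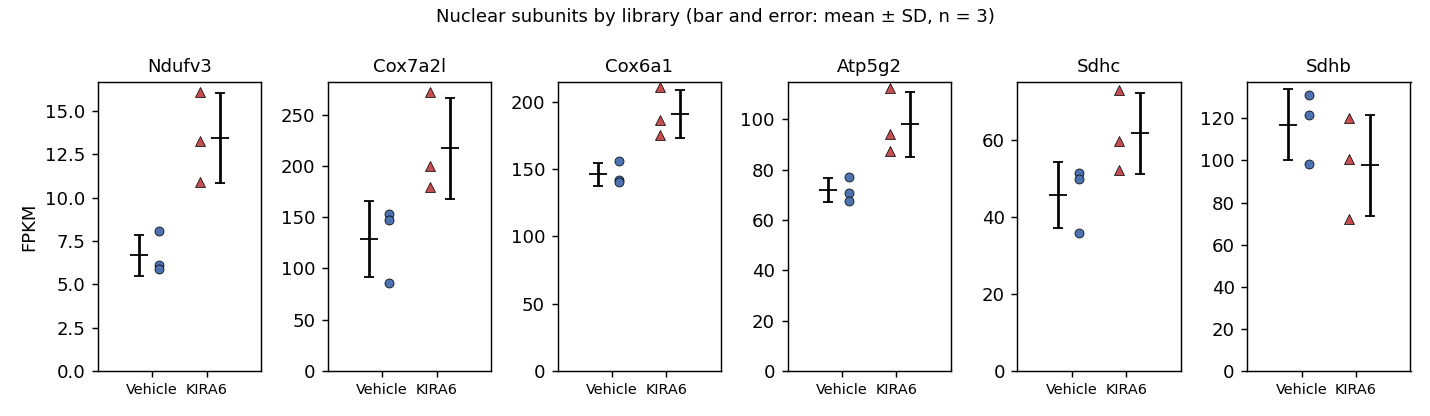
FPKM of 6 nuclear subunits in each library on linear axes from 0, with the mean ± SD of each group (n = 3). Ndufv3, Cox7a2l, Cox6a1, Atp5g2 and Sdhc did not overlap between groups, although only Ndufv3 was called, and Sdhb overlapped.

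Within the vehicle group the departure of Vehicle 3 varied with base composition. Across the 82 nuclear subunits its log2 ratio to the mean of the other vehicle libraries had r = 0.504 (Spearman rho = 0.539) with the GC content of the transcripts, and r = 0.394 across 11652 tested genes of any kind. These are correlations across genes that share libraries, given as a description. The 68 subunits with GC under 55% had a median log2 ratio of −0.496, and the 14 with 55% or more had −0.016, a division chosen after the values were seen. The fold changes of KIRA6 over vehicle had r = 0.291 with GC content across the nuclear subunits and 0.014 across all tested genes. The part of base composition in the subunit results was not tested beyond the correction for length and GC content, which called Ndufv3 and Cox7a2l higher and no subunit lower.

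**Figure D5:**
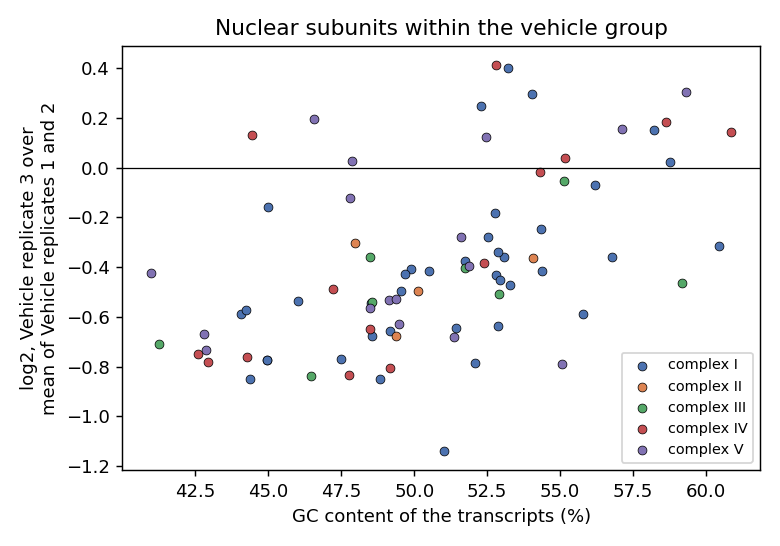
Log2 ratio of Vehicle 3 to the mean of Vehicle 1 and 2 against GC content for the 82 tested nuclear subunits, coloured by complex. The 68 genes with GC under 55% have a median of −0.496 and the 14 others −0.016.

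Promoters of the nuclear subunits are shown because words for regulators of respiratory genes can be read in them. The part of these words in the differences between libraries or groups was not tested. RefSeq start sites (GRCm38.p6, 250 bases before to 50 after each start) were at hand for 70 of the 91 nuclear genes. The NRF1 word, GCGCA and GCGC with any base between them, was found on either strand in 24.3% of them, against 5.19% of 27025 genes, and the ETS word CCGGAAG, which GABP can bind, in 24.3% against 9.93%. The YY1 word AAGATGG was found in 15.7% against 7.28%. The 27025 genes were taken whether or not they were expressed here, while 66 of the 70 subunits passed the filter on FPKM. The sets are thus unlike, and the share among tested genes was not taken. The median fold change was 0.107 with and 0.091 without the NRF1 word, 0.11 and 0.103 for the ETS word, and 0.029 and 0.107 for the YY1 word. The ETS word ends in the letters that open the YY1 word, so 1 stretch can hold both, and a match is a description, not a bound site. The 250 bases before the start are printed for Ndufv3, the only nuclear gene called, which held none of the words (chr17:31519865-31520114, plus strand), and for Cox6a1 (chr5:115348959-115349208, minus strand). In Cox6a1 the capitals mark an NRF1 word beginning 162 bases and another beginning 117 bases before the start, and an ETS word beginning 16 bases before it, on the opposite strand.
Ndufv3: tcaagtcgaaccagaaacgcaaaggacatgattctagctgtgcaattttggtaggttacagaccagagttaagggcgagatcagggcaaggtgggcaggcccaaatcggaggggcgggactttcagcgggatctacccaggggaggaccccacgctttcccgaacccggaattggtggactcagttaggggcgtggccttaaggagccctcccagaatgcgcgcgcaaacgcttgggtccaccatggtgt
Cox6a1: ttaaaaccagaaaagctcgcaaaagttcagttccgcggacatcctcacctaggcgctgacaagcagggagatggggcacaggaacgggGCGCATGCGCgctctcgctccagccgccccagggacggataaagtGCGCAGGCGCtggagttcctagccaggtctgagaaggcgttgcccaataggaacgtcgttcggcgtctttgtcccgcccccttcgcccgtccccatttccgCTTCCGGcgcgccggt

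Genes that build, supply or regulate the chain were read from 6 lists, beside the 15.6% of all tested genes called higher and 7.98% lower. The lists' counts without Vehicle 3 and KIRA6 1 stand beside 35.9% higher and 20.2% lower over all tested genes, and those with median-ratio scaling beside 11% and 12.2%. Of 50 tested assembly factors 6 rose and 3 fell, with a list median of 0.016. Ndufaf4, needed for complex I, fell from 13.2 ± 2.26 to 4.41 ± 0.525 FPKM (SD, n = 3 each), and the log2 fold change was −1.47, with a standard error of 0.17 and a limma adjusted p of 0.002431. Ecsit, of the same assembly pathway, fell from 20.5 ± 1.98 to 11.7 ± 1.47 FPKM. Uqcc3, a complex III factor, rose from 13.8 ± 1.01 to 24.8 ± 2.73 FPKM. The others that rose, named after their values were seen, were Ndufaf3 (log2 fold change 1.15), Sdhaf4 (0.99), Tmem126b (0.88), Cox20 (0.65) and Higd2a (0.47). Cox10, which makes heme O on the way to the heme of complex IV, was the other factor that fell, and is named after its values were seen. Leaving out Vehicle 3 and KIRA6 1 gave the list 7 called higher and 20 lower, and with median-ratio scaling 4 and 6.

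Of 30 tested genes for mitochondrial DNA transcription and RNA processing 2 rose and 5 fell, with a median of −0.221. Elac2, the enzyme that trims the 3′ ends of mitochondrial tRNAs, fell from 21.99 ± 1.648 to 10.4 ± 0.268 FPKM (log2 fold change −1.04, standard error 0.12, limma adjusted p 0.002431). Tbrg4, an RNA-binding protein of the FASTK family, fell from 18.9 ± 1.02 to 11.4 ± 0.382 FPKM, and the DNA helicase Twnk from 14.4 ± 1.40 to 8.26 ± 1.15 FPKM. The other called members, named after their values were seen, were Fastkd5 and Fastkd3, which fell, and Tfb1m and Mterf2, which rose. Tfam, a packaging and transcription factor shown for reference, had 12.0 ± 3.04 and 9.58 ± 1.16 FPKM (limma adjusted p of 0.3743). The list had 5 higher and 11 lower with Vehicle 3 and KIRA6 1 left out, and 1 and 7 with median-ratio scaling.

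Of 18 tested regulators of respiratory genes 1, the deacetylase Sirt1, rose from 3.65 ± 0.250 to 5.62 ± 0.0702 FPKM, and 0 fell. The factors Nrf1 and Gabpa were not called (limma adjusted p of 0.2951 and 0.1552), and the coactivator Ppargc1a was near 0, at 0.01 and 0.0567 FPKM. Without the same pair of libraries this list had 6 higher and 2 lower, and with median-ratio scaling 0 and 1. Of 18 tested genes for electron carriers and coenzyme Q 2 rose and 2 fell. Etfdh, which passes electrons from fatty acid oxidation to ubiquinone, rose from 2.2 ± 0.0624 to 6.24 ± 0.255 FPKM, and Coq10a from 1.60 ± 0.539 to 3.94 ± 0.616 FPKM. Pdss1, which builds the side chain of ubiquinone, fell from 9.46 ± 2.89 to 3.87 ± 0.425 FPKM, and Dhodh also fell. Cytochrome c (Cycs) had 89.7 ± 29.4 and 56.0 ± 12.3 FPKM (limma adjusted p of 0.1701). Without the same pair of libraries 4 members were called higher and 5 lower, and with median-ratio scaling 2 and 3.

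Of 18 tested genes of the citric acid cycle 0 rose and 2 fell. Idh3a, of the NAD-dependent isocitrate dehydrogenase, fell from 48.0 ± 5.27 to 32.7 ± 0.593 FPKM and Dlst from 27.2 ± 0.687 to 20.2 ± 1.28 FPKM. Of 7 tested carriers, channels and uncouplers 1, the outer-membrane channel Vdac2, fell from 93.6 ± 6.15 to 69.4 ± 2.93 FPKM at the edge of the threshold (limma adjusted p of 0.04991). Without the same pair of libraries the lists had 1 higher and 6 lower, and 1 and 5. With median-ratio scaling each had 0 higher and 2 lower.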

How the data were processed

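The deposited table covers 6 libraries of 4T1 cells, 3 vehicle and 3 KIRA6. Per the labels' protocols, RNA was enriched on oligo(dT) and the second cDNA strand was marked with dUTP. The tools listed in the submitters' processing notes are HISAT2 2.2.1, cutadapt 1.9.1, DESeq2 1.34.0 and HTSeq 0.6.1, with GRCm39 as the build. Their settings for strand and for reads with several matches are not stated in any label or header. The authors deposited FPKM for each gene and library.

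Depth was recovered from the steps between FPKM values of genes of up to 300 bases. In each library 303 to 405 values were checked, and 100% lay no more than 0.1 fragment from an integer. The test was limma 3.58.1 (R 4.3.3) on log2(FPKM + 0.5), KIRA6 against vehicle, with trend and robust empirical Bayes, two-sided, over the 11778 genes averaging 0.5 FPKM or more, with Benjamini-Hochberg adjustment. The code was checked on simulated data. The labels name no separate cultures, so p-values cover only the spread between these libraries, possibly technical. Permuting 3 against 3 libraries gives no p under 0.1. Errors are SD for FPKM and standard errors for fold changes.

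Members and lists were chosen with earlier results of these data known. Named whatever their values were the mitochondrial and complex II subunits and the isoform sets. Named from their values were every called subunit, the most and least abundant of each complex, and up to 3 called genes of smallest p in each list. Others are marked in the text or serve as reference. The ATP synthase inhibitor carries no Atp5 symbol in the table and is no member. Shared windows and GC content came from GENCODE M21 transcripts by gene identifier (91.9% of identifiers and all 104 subunits matched), and promoters from RefSeq on GRCm38.p6. Alternatives changed the pseudocount, filter, scaling and library weights, used voom, corrected for length and GC content, added a replicate block, and left out libraries. The within-group component as a covariate, the count without shared mitochondrial genes, and the way array weights were estimated were chosen after seeing the data.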

Additional observations from a re-analysis of the deposited data

How the results depend on the processing

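Leaving out each library in turn gave 1211 (without KIRA6 2) to 3392 (without Vehicle 3) called genes, against 2783 with all, and 0 to 7 called subunits against 3. Without Vehicle 3 and KIRA6 1 together there were 6610 genes, 32 subunits and a nuclear median of −0.154. The first within-group component as a covariate, added after seeing the data, gave 6751 genes and 30 subunits, 28 higher and 2 lower. These fits shared 15 subunits called higher and 2 called lower, Sdhb and Uqcrfs1. The component was taken from these same data, with Vehicle 3 and KIRA6 1 at its ends, and as a covariate it lowers the spread by construction. Both fits thus remove much the same variation, and the shared calls are not separate support. Array weights gave 7553 genes, 38 subunits and a mitochondrial median of 0.881. These weights ran from 0.168 (Vehicle 3) to 5.45 (Vehicle 2), with 0.337 for KIRA6 1 and 3.1 for KIRA6 2, so the fit leaned on 1 library per group. They were estimated gene by gene, a choice made after the default estimation did not converge (1 library at a weight of 34.1, 10003 genes and 73 subunits called). Median-ratio scaling left 1 subunit called, Ndufv3. The length and GC correction moved the mitochondrial median to 0.301. Same-numbered libraries deviated together for numbers 1 and 3 (r = 0.762 and 0.738) but not 2 (−0.469), so they were not taken as pairs. The replicate block gave 4423 genes and 11 subunits, and with the length and GC correction 5066 genes, 10 subunits and a mitochondrial median of 0.301. Of 788 single-gene values, 700 kept direction and side of the threshold (47 of 66 called ones stayed called), 19 lost a call, 67 gained one and 2 turned. Both were Sdhd, uncalled at 0.022, which was called lower with array weights (−0.285) and without Vehicle 3 and KIRA6 1 (−0.367). Without the mitochondrial genes of shared sequence 2 subunits were called. The cause of these changes was not tested. mt-Atp8 and mt-Nd4l rest on few fragments.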

Other observations

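The mitochondrial genome also carries rows that are no subunits. The 12S ribosomal RNA mt-Rnr1, at 263.73, 226.58 and 236.2 FPKM under vehicle and 368.85, 397.09 and 349.25 FPKM under KIRA6, rose without overlap between groups (log2 fold change 0.62, standard error 0.14, limma adjusted p = 0.02007). The 16S ribosomal RNA mt-Rnr2 had 107.08, 117.97 and 137.55 FPKM under vehicle and 153.7, 317.65 and 242.39 FPKM under KIRA6, and missed the threshold (limma adjusted p = 0.05318). Both were measured after selection for polyadenylated RNA. Of 22 mitochondrial tRNA rows 21 were at 0 in all libraries. The exception, mt-Tp, lies next to the control region, and had 205.79, 189.07 and 468.23 FPKM under vehicle and 334.88, 562.07 and 436.15 FPKM under KIRA6. Like mt-Nd2, mt-Nd5 and mt-Nd6, it was highest among the vehicle libraries in replicate 3 and lowest among the KIRA6 libraries in replicate 1.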
